A study of Mus musculus with 6 samples.

Results

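The Eph receptors described here are 10 genes, 6 of class A (Epha3, Epha4, Epha5, Epha6, Epha7 and Epha8) and 4 of class B (Ephb1, Ephb2, Ephb3 and Ephb6), taken by symbol from the 47062 genes of the deposited table. RNA was sequenced from the striatum with its subventricular zone, dissected from newborn mice at postnatal day 0 on a mixed background of the strains C57BL/6J, 129S6 and CD1. The mutant libraries (n = 3) had the genotype Drd2-Cre;Sp9Flox/Flox, in which Cre driven from Drd2, the dopamine D2 receptor gene, deletes the floxed transcription factor gene Sp9 in cells that use Drd2, the striatopallidal or indirect pathway neurons. The control libraries (n = 3) came from Sp9Flox/Flox littermates, which carry the same floxed alleles and no Cre. No group had Cre without the floxed alleles, so the transgene and the deletion cannot be told apart. The labels do not say whether a library came from 1 animal, so the p-values reflect library-to-library spread, which may be technical.

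Eph receptors are receptor tyrosine kinases that are activated by ephrins on the surface of neighbouring cells. Class A receptors mainly bind the lipid-anchored ephrin-A ligands and class B receptors the transmembrane ephrin-B ligands, while EphA4 binds ligands of both classes. The receptor signals into its own cell (forward) and the ephrin into the cell that carries it (reverse), usually leading growth cones to turn away and unlike cells to sort apart. In the developing striatum, ephrin and EphA signalling has been linked to the separation of the striosome and matrix compartments.

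The libraries held 16237067 to 19457784 fragments in genes, estimated from the step of the deposited count columns. Sp9 had 8.37, 7.93 and 9.67 FPKM (fragments scaled by transcript length and by library depth) in mutant replicates 1 to 3, against 20.1, 19.0 and 17.3 FPKM in control replicates 1 to 3. Adora2a, an adenosine receptor gene of indirect pathway neurons, was the marker that separated the groups most, with 3.95, 5.36 and 3.02 FPKM in mutant libraries and 47.6, 41.1 and 44.1 FPKM in control libraries, and Drd2 itself averaged 44.4 FPKM in mutants and 45.0 FPKM in controls. Among the marker genes of striatal neurons and of other cells, 2 of 8 indirect pathway genes and no gene of another list passed the adjusted threshold of 0.05 (limma). Of all genes tested, 0.0600% passed it. At an unadjusted p under 0.05 (limma), 7 of the 8 indirect pathway genes were lower in mutants and 0 higher, where 2.99% and 2.65% of all genes were. Of 6 direct pathway genes, 3 were higher and 1 lower at that level. The summed FPKM of 7 cortical glutamatergic markers was uneven between libraries, at 8.20 to 54.5 in mutants and 7.17 to 22.2 in controls, with 5 of the 7 markers above the filter on low values and none listed at 0 in every library. Control replicate 3 was the only library with Y-linked transcripts (Ddx3y at 16.7 FPKM) and without Xist (0.0604 FPKM), and without it the log2 fold changes of Ephb1 and Epha7 given below were -0.16 and 0.19.

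The newborn striatum held a graded set of Eph receptors, led by Epha4, and the order of the group means was the same in both genotypes. On the FPKM scale, which is per length and lets genes be set side by side, Epha4 averaged 97.9 over the 6 libraries, above 92.9% of the 16666 genes tested. Ephb1 followed at 62.0 and Epha7 at 51.7 FPKM. Ephb6 (26.3), Epha8 (22.4), Epha5 (13.9) and Ephb2 (11.9) formed a middle group, and Ephb3 (1.75 to 2.48 over the libraries), Epha3 (1.80 on average) and Epha6 (0.672) were low. Epha4 exceeded Ephb1 by 1.36 to 1.81 times within every library, and Epha7 exceeded Ephb6 by 1.59 to 2.54 times. Ephb2 exceeded Ephb3 by 4.87 to 6.56 times within every library. Neighbours whose ranges overlapped were Ephb1 and Epha7, Ephb6 and Epha8, Epha5 and Ephb2, and Ephb3 and Epha3, and in each of these pairs the order held in 5 of 6 libraries.

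**Figure D1:**
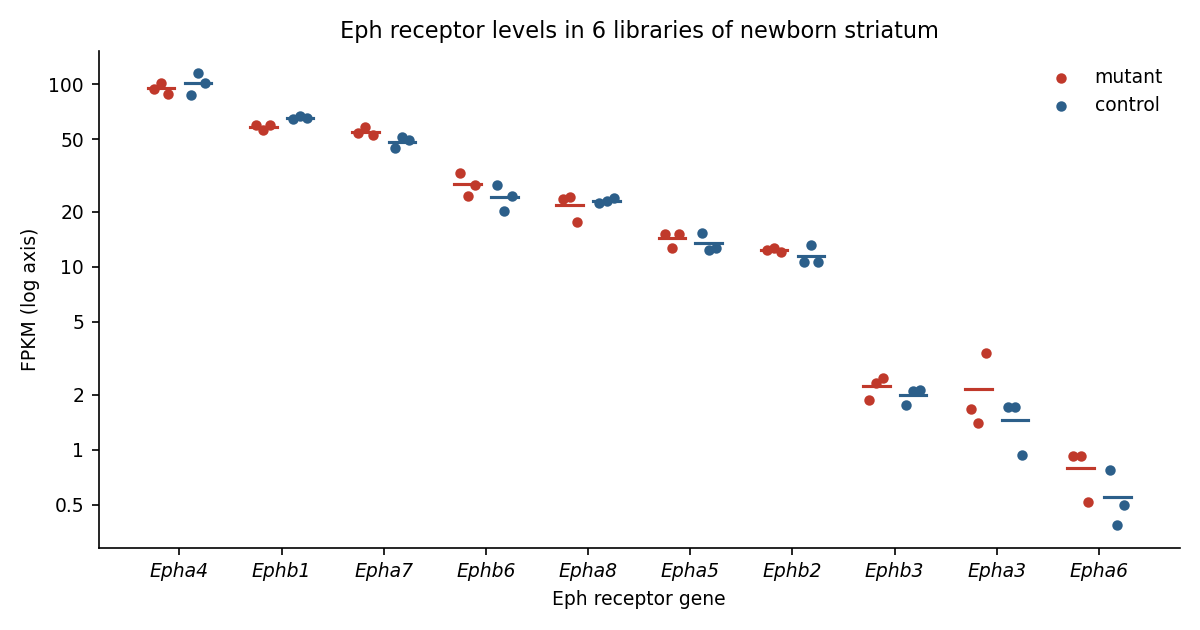
FPKM of each Eph receptor gene in the 3 mutant (red, left) and 3 control (blue, right) libraries, on a log axis; each point is a library and each bar a group mean. Epha4 lies near 100 FPKM, 7 genes lie above 10 and 3 lie near or below 3, and the groups of most genes overlap.

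The summed level of the 10 receptors was close in the 2 genotypes, at 290 ± 8.61 FPKM in mutants and 291 ± 14.6 FPKM in controls (SD, n = 3 each). Class A made up 65.0 ± 2.26% of that sum in mutants and 64.5 ± 2.17% in controls. Epha4 alone gave 32.6 ± 1.66% in mutants and 34.6 ± 2.91% in controls. Ephb1 gave 20.2 ± 1.17% of the sum in mutants and 22.5 ± 0.669% in controls, and Epha7 gave 18.9 ± 0.783% in mutants and 16.6 ± 0.456% in controls.

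Mutant and control were compared to ask which of these receptors differ in bulk striatum when Drd2-Cre acts on floxed Sp9. In bulk tissue, fewer cells of a type and less RNA per cell cannot be told apart. None of the 10 receptors passed an adjusted p of 0.05 with limma over all genes, against 0.0600% of all genes tested, and 2 of 10 had an unadjusted p under 0.05, against 5.65%. Of these, Epha7 was higher and Ephb1 lower, as 2.65% and 2.99% of all genes were. Robust limma, which called 14 of 16666 genes, also called none of the receptors. The same holds for limma on the scaled counts, which called 0.143% of all genes. The study's criterion, which asks for a 2-fold difference and an unadjusted p no higher than 0.05, took none of the 10 and 0.342% of all genes. In 2 of 10 receptors the mutant and control libraries did not overlap, against 11.4% of all genes (5.33% with the mutants higher and 6.05% with the mutants lower). Of the 10 log2 fold changes, 7 were above 0, as 49.9% of all genes were, and 3 below, with a median of 0.12 beside a median of -0.00016 over all genes tested. Without mutant replicate 3 the receptors' median was 0.07.

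On FPKM with all 6 libraries and no block, Ephb1 was the receptor with the smallest p. On scaled counts this was Epha7, with the replicate block Ephb6 and without control replicate 2 Ephb2. Ephb1 encodes a receptor for ephrin-B ligands that is known for steering retinal axons to the same side of the brain at the optic chiasm. Its FPKM was 59.5, 56.1 and 60.0 in mutant replicates 1 to 3, against 64.2, 66.9 and 65.4 in control replicates 1 to 3. Every mutant library lay below every control library, with a gap of only a few FPKM. The means were 58.5 ± 2.09 FPKM in mutants and 65.5 ± 1.35 FPKM in controls (SD, n = 3 each), a log2 fold change of -0.16 ± 0.04 (SE; 95% interval -0.26 to -0.06) with an adjusted p of 0.727 (limma). Ephb1 also had one of the smallest spreads within groups, an SD of 0.0421 on the log2 scale, above that of only 5.57% of genes. The groups did not overlap on scaled counts either, at 5356, 5055 and 5416 in mutants and 5804, 6060 and 5874 in controls.

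Epha7 had its higher values in the mutants. It encodes a receptor for ephrin-A ligands with known splice forms that lack the kinase domain. Its FPKM was 53.7, 58.1 and 52.7 in mutant replicates 1 to 3 and 44.6, 51.5 and 49.3 in control replicates 1 to 3, so that the lowest mutant library lay just above the highest control library. The means were 54.8 ± 2.85 FPKM in mutants and 48.5 ± 3.55 FPKM in controls (SD, n = 3 each), which gave a log2 fold change of 0.18 ± 0.07 (SE; 95% interval 0.01 to 0.35; adjusted p = 0.858, limma). Within a library, the ratio of Epha7 to Ephb1 does not depend on how libraries were scaled. It was 0.903, 1.04 and 0.879 in the mutants and 0.694, 0.770 and 0.754 in the controls. These 2 genes were chosen for the ratio after their values were seen, and it was not tested.

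The promoters of these genes are shown because the deleted factor belongs to the Sp family, whose zinc fingers are known to recognise GC-rich boxes. Windows of 250 bases before to 50 bases after a gene's start (RefSeq, GRCm38.p6) were found for all 10 receptors. The GC box was searched as GGGCGG and, on the other strand, as CCGCCC, with overlapping matches counted. Of all 32851 windows, 35.7% held at least 1 box, against 8 of 11 receptor windows, which belong to 7 of 10 receptors. Ephb1 had none and Epha7 had 1. Epha8, whose levels overlapped between genotypes, had 6, a number reached by 1.35% of all windows. Epha3 and Ephb2 had none either, Epha4 had 1, Epha5, Epha6 and Ephb3 had 2 each, and Ephb6 had 5 in a window of 76.3% G and C. No receptor window held a TATAAA motif, against 8.32% of all windows that held it on the gene's strand. A match is a run of letters and not a measured binding site. The 250 bases before the start are printed 5′ to 3′ on the gene's strand, with the boxes in capitals, for Ephb1 (chr9:102354694-102354943, minus strand), Epha7 (chr4:28812881-28813130, plus strand, the first of 2 annotated starts) and Epha8 (chr4:136956817-136957066, minus strand).
Ephb1: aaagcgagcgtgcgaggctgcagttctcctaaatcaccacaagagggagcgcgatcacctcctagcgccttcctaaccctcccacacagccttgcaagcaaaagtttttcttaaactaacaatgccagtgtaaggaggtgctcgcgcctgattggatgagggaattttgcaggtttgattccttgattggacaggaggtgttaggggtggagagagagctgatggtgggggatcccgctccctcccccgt
Epha7: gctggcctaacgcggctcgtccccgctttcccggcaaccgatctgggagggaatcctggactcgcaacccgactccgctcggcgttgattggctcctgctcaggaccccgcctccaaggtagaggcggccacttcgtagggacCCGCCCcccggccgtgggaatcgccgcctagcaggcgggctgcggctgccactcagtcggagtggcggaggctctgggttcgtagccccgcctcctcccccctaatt
Epha8: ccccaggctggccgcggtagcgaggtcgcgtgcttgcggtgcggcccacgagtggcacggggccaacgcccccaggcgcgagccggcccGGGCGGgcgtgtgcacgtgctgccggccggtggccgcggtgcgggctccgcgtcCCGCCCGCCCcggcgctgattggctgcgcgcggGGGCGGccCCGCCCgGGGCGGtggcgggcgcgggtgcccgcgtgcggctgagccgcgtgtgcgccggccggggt
Over the 300-base windows, G and C made up 55.7% of Ephb1, 67.0% of Epha7 and 84.3% of Epha8, against a median of 52.7% over all windows. Every receptor window lay above that median, and box counts were not compared at equal G and C content. Epha7 and Epha8 were chosen for printing after their values were seen.

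The other class A receptors overlapped between genotypes. Epha4, which responds to both ephrin classes and is known for keeping corticospinal axons from crossing the midline, had 94.4, 102 and 88.0 FPKM in mutants and 87.5, 115 and 101 FPKM in controls. The highest and the lowest library were both controls. Its log2 fold change was -0.09 ± 0.11 (SE), and the 95% interval of the fold ran from 0.779 to 1.13. Epha5, a receptor for ephrin-A5, had 15.1, 12.7 and 15.2 FPKM in mutants and 15.2, 12.4 and 12.7 FPKM in controls, and each group held a library near 15 and one under 13. Epha8 had 23.6, 24.2 and 17.7 FPKM in mutants, against 22.3, 22.9 and 23.7 FPKM in controls. Mutant replicate 3 alone was low for Epha8. Without that library the Epha8 log2 fold change was 0.06, against -0.08 with it.

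Epha3 and Epha6, which both lie on chromosome 16, were the least abundant members and the least precisely measured. Epha3, another receptor for ephrin-A5, had 1.66, 1.40 and 3.36 FPKM in mutants and 1.72, 1.71 and 0.933 FPKM in controls. Its log2 fold change of 0.39 ± 0.33 (SE) was 0.08 without mutant replicate 3, the library with the highest Epha3 and with the highest cortical marker sum (54.5 FPKM). In control replicate 3, which had the lowest Epha3, that sum was also lowest (7.17 FPKM), and mutant replicate 2 was next lowest in both (8.20 FPKM). The order differed in the remaining libraries. Mutant replicate 1 had a sum of 34.5 FPKM and less Epha3 than control replicates 1 and 2, whose sums were 19.7 and 22.2 FPKM. The part of cortical tissue in the Epha3 values was not tested. Without control replicate 3, the only library with Y-linked transcripts, the log2 fold change of Epha3 was 0.18. Epha6 had 0.928, 0.922 and 0.519 FPKM in mutants and 0.777, 0.386 and 0.499 FPKM in controls. It rested on 24 to 53 fragments a library, against 7794 to 10966 for Epha4, and its 95% interval on the log2 scale ran from -0.27 to 0.86.

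Of the other class B receptors, Ephb6, whose kinase domain has no catalytic activity, had 32.6, 24.4 and 28.2 FPKM in mutants and 28.0, 20.3 and 24.5 FPKM in controls. Its log2 fold change was 0.23 ± 0.15 (SE; adjusted p = 0.888, limma) with groups that overlap. Ephb2, which is known for clustering NMDA receptors at excitatory synapses, had 12.3, 12.7 and 12.1 FPKM in mutants, a narrower range than the 10.7, 13.2 and 10.6 FPKM of controls. Ephb3, which acts beside Ephb2 in commissural axons, had 1.88, 2.31 and 2.48 FPKM in mutants and 1.75, 2.09 and 2.11 FPKM in controls. Ephb2 and Epha8 both lie on chromosome 4, 93.4 kb apart, and neither separated the genotypes.

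For 9 of 10 receptors the 95% interval excluded a 2-fold change in either direction, as it did for 88.1% of all genes. The exception was Epha3, whose fold interval reached 2.32. Epha6, at under 1 FPKM, is among the 9 only with the added 0.5 or more: its log2 fold change was 0.45 (95% interval -0.49 to 1.39) with 0.1 added and 0.48 (-0.07 to 1.03) on scaled counts, which leaves 8 of 10 in both cases. For 7 of 10 receptors it also excluded a 1.5-fold change, against 71.2% of all genes, with Epha3, Epha6 and Ephb6 as the exceptions.

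**Figure D2:**
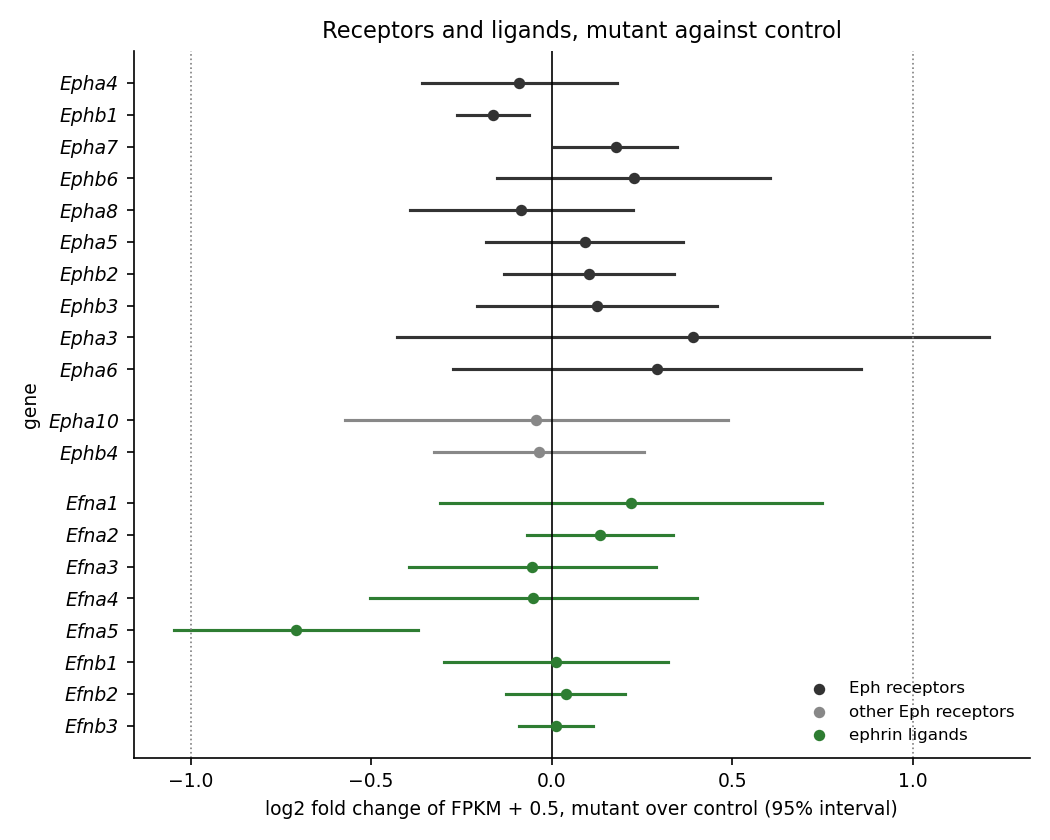
Log2 fold change of FPKM + 0.5 (mutant over control, points) with 95% intervals from limma for 10 Eph receptors (black), 2 other measured Eph receptors (grey) and 8 ephrin ligands (green); dotted lines mark a 2-fold change. The receptor intervals cluster near 0, those of Ephb1 and Epha7 lie on opposite sides of it, and Efna5 has the lowest estimate.

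Some receptors had their highest values in the same libraries whatever the genotype, a pattern seen in the values and not planned. How many of all genes share it was not counted. Of the 10 receptors, only Epha5 and Ephb6 had their 3 highest values in mutant replicates 1 and 3 and control replicate 1. So did Epha10, a further family member without kinase activity, with 9.10, 6.52 and 9.27 FPKM in mutants and 10.4, 6.44 and 8.96 FPKM in controls. Epha4 had its 3 lowest values in those libraries. The summed FPKM of 7 progenitor markers was 113, 83.4 and 135 in mutants and 130, 77.0 and 79.3 in controls, highest in the same 3 libraries, and no progenitor marker passed the test between genotypes. The part of progenitor or cortical content in these receptor levels was not tested. For Ephb1 and Epha7 these could not be the 3 highest libraries, since the genotypes do not overlap in either gene. Within each genotype, Epha7 ranked the libraries in the same order as Epha4.

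**Figure D3:**
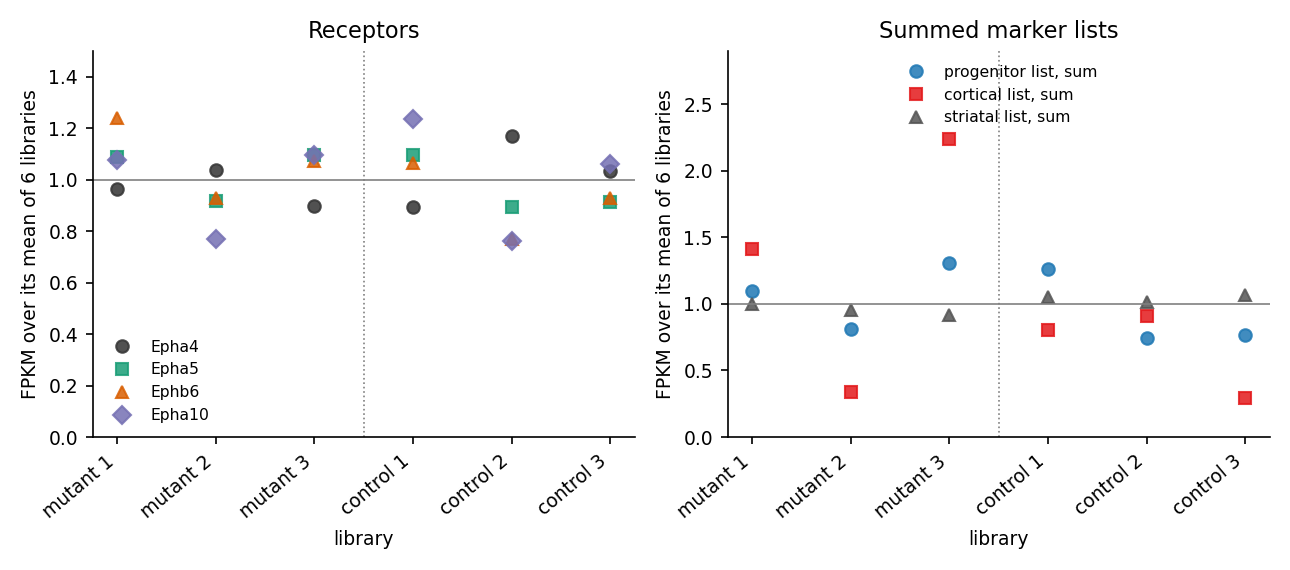
Left, FPKM of Epha4, Epha5, Ephb6 and Epha10 in each library divided by its mean over 6 libraries; right, the same for the summed FPKM of the progenitor, cortical and striatal marker lists (mutant libraries left of the dotted line). Epha5, Ephb6 and the progenitor sum are above 1 in mutant 1, mutant 3 and control 1, where Epha4 is below 1.

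FPKM and scaled counts could differ for a gene if the mix of its transcripts changed, since FPKM is scaled by transcript length. The ratio of scaled count to FPKM, divided by its mean over the libraries, stayed between 0.955 and 1.04 for 9 receptors. For Epha6 it ran from 0.884 to 1.23. The mutants differed from the controls in this ratio by -0.03 to 0.03 on the log2 scale over the 10 receptors. GENCODE M21 lists 11 transcripts for Epha5, 8 for Epha7, 7 for Epha4 and 1 for Epha8. Ephb1 (ENSMUSG00000032537; GRCm38 chromosome 9, 101922128 to 102354693, minus strand) overlaps 9 other annotated genes, 6 of them on the opposite strand, of which the most abundant averaged 0.888 FPKM. The use of strand is not given in the sources used here. Epha7 (ENSMUSG00000028289; GRCm38 chromosome 4, 28813131 to 28967499, plus strand) overlaps 1 antisense gene that is listed at 0 in every library.

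Among the ligands, Efnb3 averaged 61.4 FPKM in mutants and 60.9 FPKM in controls, and Efnb2 averaged 34.3 FPKM in mutants and 33.3 FPKM in controls. These transmembrane ligands were the most abundant. Efna3 averaged 18.6 FPKM in mutants and 19.5 FPKM in controls, Efna2 averaged 18.5 FPKM in mutants and 16.8 FPKM in controls, and Efnb1 averaged 10.3 FPKM in mutants and 10.1 FPKM in controls. Efna4 and Efna1 were low, at 0.747 to 1.35 FPKM in mutants and 0.439 to 1.30 FPKM in controls. Efna5, a ligand of Epha3, Epha5, Epha7 and other class A receptors, had 3.55, 2.83 and 4.10 FPKM in mutants and 5.64, 5.91 and 6.38 FPKM in controls, groups that did not overlap. Its log2 fold change was -0.71 ± 0.14 (SE; unadjusted p = 0.00234), and its adjusted p was 0.566 on FPKM but 0.0399 on scaled counts (limma), where it was the 1 ligand or pathway gene that passed. Over the 15 alternatives its adjusted p ran from 0.0399 to 1. No other ligand had an unadjusted p under 0.05. Of 4 further receptors of the family, Epha10 and Ephb4 (1.36 FPKM in mutants and 1.40 FPKM in controls) were measured and did not pass, and Epha1 and Epha2 lay under the filter on low values, with at most 4 and 21 fragments in any library.

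Below the receptors, none of 29 forward signalling genes and none of 13 genes of receptor cleavage, scaffolding, reverse signalling and shutdown passed the adjusted threshold with limma. At an unadjusted p under 0.05, 2 forward genes were lower and 0 higher, and in the other list 1 was lower and 1 higher, where 2.99% of all genes were lower and 2.65% higher. The median log2 fold change was -0.04 for the forward genes and -0.03 for the others. The groups did not overlap in 3 of 29 and 4 of 13 genes, against 11.4% of all genes. The 2 lower forward genes were both ephexins, exchange factors that couple Eph receptors to RhoA. Ngef, or ephexin 1, had 131, 143 and 117 FPKM in mutants, against 156, 157 and 170 FPKM in controls (log2 fold change -0.31 ± 0.08, SE; adjusted p = 0.763, limma). Arhgef15, or ephexin 5, had 6.84, 7.39 and 5.72 FPKM in mutants, against 10.3, 8.14 and 9.09 FPKM in controls. Its log2 fold change was -0.44 on FPKM but -0.19 on scaled counts, where the groups overlapped at 491, 458 and 395 in mutants and 552, 450 and 529 in controls. Chn1, which encodes the Rac inhibitor chimaerin that acts below EphA4, had 62.0, 60.7 and 60.0 FPKM in mutants and 62.4, 64.2 and 65.7 FPKM in controls, a log2 fold change of -0.07. Vav2, an exchange factor recruited by activated Eph receptors, had 10.5, 9.03 and 10.4 FPKM in mutants and 9.77, 9.15 and 7.99 FPKM in controls, which overlap. In the other list, Ptpro, a phosphatase that acts on Eph receptors, averaged 25.8 ± 2.05 FPKM in mutants and 30.5 ± 1.85 FPKM in controls, and Rgs3, a partner of ephrin-B reverse signalling, averaged 5.91 ± 0.186 FPKM in mutants and 4.94 ± 0.509 FPKM in controls (SD, n = 3 each). On scaled counts the groups of Rgs3 overlapped, at 270, 312 and 284 in mutants and 233, 275 and 254 in controls, and its unadjusted p was 0.0925 there and 0.0799 with quantile normalization (limma), against 0.0424 on FPKM. The scaffold gene Afdn also had groups that did not overlap and averaged 86.9 FPKM in mutants and 97.3 FPKM in controls.

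**Figure D4:**
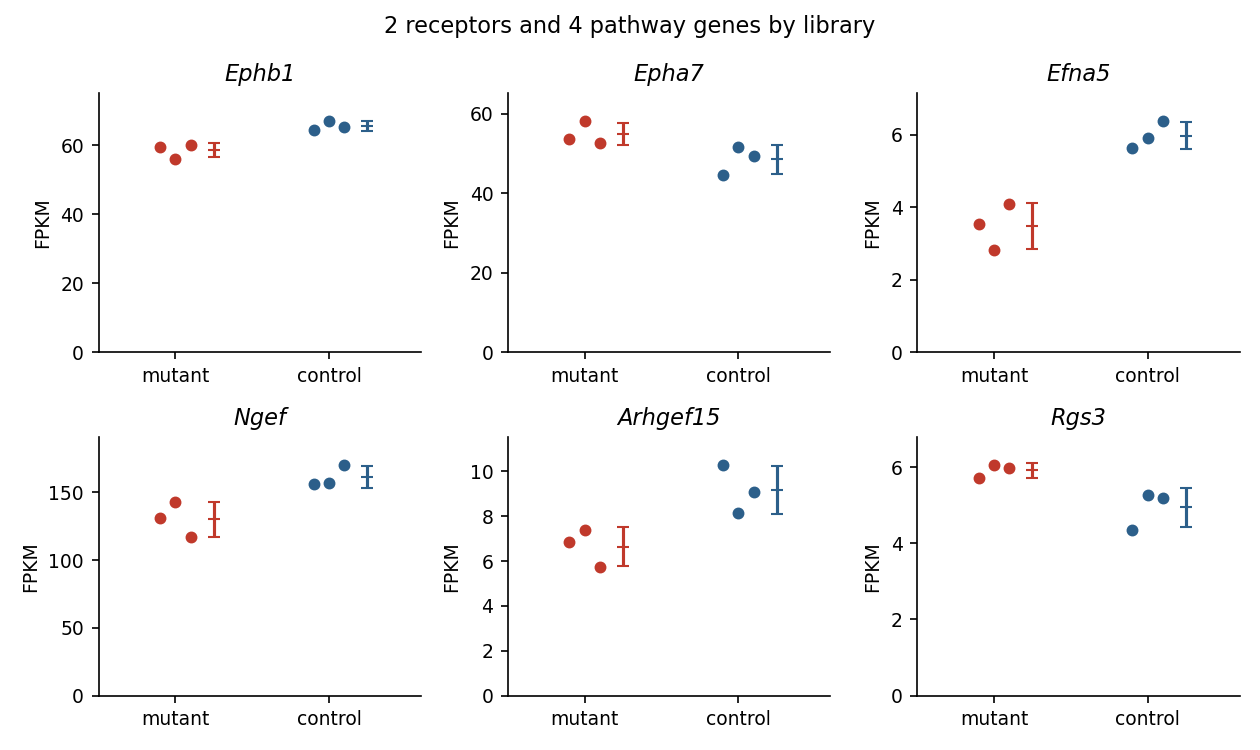
FPKM of 2 receptors (Ephb1 and Epha7), the ligand Efna5 and 3 signalling genes in 3 mutant (left, red) and 3 control (right, blue) libraries; points are libraries and bars the mean ± SD, and every axis starts at 0. The 6 genes were chosen among those whose groups do not overlap on FPKM. The mutants are higher for Epha7 and Rgs3 and lower for the other 4. On scaled counts the groups of Arhgef15 and Rgs3 overlap.

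**Figure D5:**
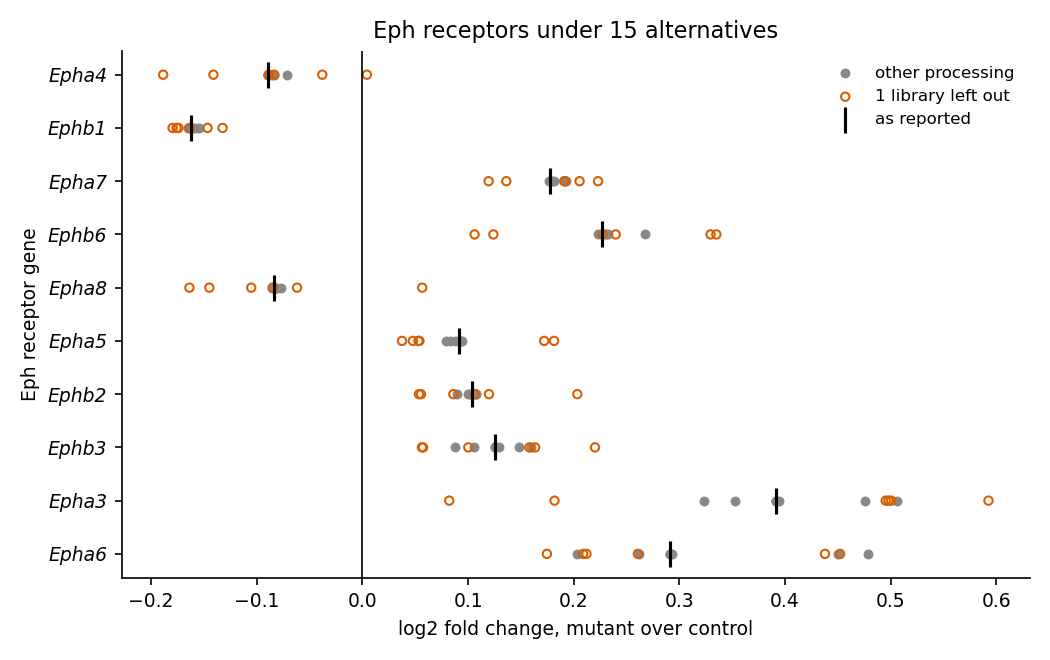
Log2 fold change (mutant over control) of each Eph receptor as reported (black bar), with 1 library left out (open orange circles) and under other processing (grey points). Ephb1 stays below 0 and Epha7 above 0 in all of them, while Epha4 and Epha8 each cross 0 in 1 case. The groups of Ephb1 and Epha7 do not overlap, so leaving out 1 library could not change their sign.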

How the data were processed

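The series holds 6 RNA-seq libraries in 1 deposited table. Per the file headers, it gives FPKM and a count column for each library and Ensembl gene. TopHat and Cufflinks 2.1.1 on GRCm38.p4 are named, per the submitters' processing notes. Annotation, strand setting and handling of multi-mapping reads, which matter for related kinases, are not given in these sources. The deposited count columns were used as a signal, called scaled counts, since their values are not whole: 97.7 to 97.9% of values of at least 0.01 lay within 0.1 of a multiple of 1 step per library. Symbols matched 46483 of 47062 identifiers (GENCODE M21).

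limma 3.58.1 in R 4.3.3 was fitted with a variance trend to log2(FPKM + 0.5) over all 6 libraries, with no covariate, for 16666 genes whose mean FPKM reached 0.5. All 10 receptors passed this filter. P-values were two-sided and adjusted by the Benjamini-Hochberg method over all genes. Because of the added 0.5, fold changes of weakly expressed genes are understated. Tested on simulated data, the fit recovered most 2-fold changes, missed many 1.5-fold changes and made more false calls than its nominal rate. The simulation gave all genes the same small dispersion and placed changes only where the mean scaled count reached 10. In the real libraries the spread within groups differed between genes, with a log2 SD of 0.0421 for Ephb1 and 0.155 for Epha4. Recovery at the real spread was therefore not measured. The pass criterion of the simulation was relaxed after a first run, so adjusted p-values near the threshold are to be read with caution.

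The receptors and gene lists were chosen with earlier results of these data known. Every receptor and ephrin is named, with up to 4 genes of each other pathway list by smallest p. One gene that this rule takes is not reported here. The alternatives were other pseudocounts (0.1 and 1), no filter or a minimum of 1 FPKM, median-ratio and quantile normalization, robust limma, a replicate block, log2(scaled count + 1) where the mean scaled count reached 10, and each library left out in turn. For Efna5, Ngef, Arhgef15, Ptpro and Rgs3 they were added after seeing the data.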

Additional observations from a re-analysis of the deposited data

How the results depend on the processing

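No receptor passed the adjusted threshold or the study's rule under any of the 15 alternatives run. Of the 10 receptors, 7 kept the sign of their log2 fold change in all 15, and Epha6 kept it in the 14 that measured it, since it falls under a minimum of 1 FPKM. Changing the filter, robust limma and the replicate block leave the estimate itself unchanged, so those alternatives could not change a sign. With 1 library left out, Epha4 ran from -0.19 to 0.0042 (above 0 without control replicate 2) and Epha8 from -0.16 to 0.057 (above 0 without mutant replicate 3), while Ephb1 ran from -0.18 to -0.13 and Epha7 from 0.12 to 0.22. The number of receptors with groups that do not overlap was 2 as reported and 2 to 4 with 1 library left out, with 4 without control replicate 1, where smaller groups overlap less often in general (22.9% of all genes, against 11.4%). The count of ligands and pathway genes past the threshold was 0 as reported and 1 on scaled counts (Efna5). The replicate numbers were not taken as pairs, since the deviations of same-numbered libraries correlated at 0.0025, 0.0372 and 0.0433. Those of a mutant and a control library with different numbers correlated at -0.0683 to 0.0328. With the replicate block, 0 receptors and 0 pathway genes passed, 5 of 16666 genes did in all, against 10 without it, and the adjusted p of Ephb1 and of Epha7 was 0.868 each. The unadjusted p of Ephb6 was 0.00712 with the block and 0.190 without it, and its adjusted p with the block was 0.868 (limma). No scaling moved the median of all genes by more than 0.00981 on the log2 scale. Tests on whole counts were not run, because not all values came out as multiples of a step. Depth limits Epha6 most, at 24 to 53 fragments a library.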
